A study of Arabidopsis thaliana with 6 samples.

Results

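MAP kinase cascades carry signals from receptors into the cell through kinases that act in sequence. A MAP kinase kinase kinase (MAPKKK) phosphorylates a MAP kinase kinase (MKK), which in turn phosphorylates a MAP kinase (MPK), and the MPK acts on transcription factors, enzymes and cytoskeletal proteins. In Arabidopsis thaliana these cascades are best known from immunity, stomatal patterning, cytokinesis and abscisic acid signalling, and the MKK10 and MPK6 pair has been described as a regulator of the bHLH factor PIF3 in seedlings moved to light. The question here is where peaks of the related bHLH factor PIF4, which promotes elongation growth, lay relative to the genes of the 3 tiers.

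The genes were chosen by name in NCBI RefSeq's gene table for TAIR10.1: a symbol or synonym of MPK, MKK or MAPKKK followed by a number, and a product name of a MAP kinase, MAP kinase kinase or MAPKK kinase. This gave 48 of 27444 protein-coding genes, namely 18 MPK, 10 MKK and 20 MAPKKK genes. The set was then divided by the peaks themselves, so all peak counts and folds at these genes are given as descriptions, with no test. The annotation has no separate product description, so the product names among its synonyms were used. ATMPK8 (synonym MPK8) and NP3 (synonym MAPKKK12) carry no such name, and ATMPK13 has no synonym of the required form, so these 3 genes stand apart and are described at the end.

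Chromatin was precipitated with an anti-Myc antibody from whole, 3-day-old, dark-grown seedlings in 2 groups: a line overexpressing Myc-tagged PIF4, and the wild type, which carries no tag. The growth settings also included 3 h of white light and a temperature of 21 °C. At which stage the light was given is not stated here. The promoter that drives the transgene is not given in the sources used here. Each group had 3 libraries, each a pool of 4 ChIP assays of 2 biological replicates. The data are 3 peak lists, 1 for each PIF4-Myc library, in which a wild-type ChIP served as the control.

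Lists 1, 2 and 3 held 12177, 4093 and 2931 peaks, from 12766185, 9385807 and 12292381 treatment tags. All tag counts of list 1 peaks are multiples of 5, as is the list 1 total, for a reason not tested. The 3 totals are therefore not compared as depths. Fold enrichment is the authors' value for 1 peak in 1 list: tags at the peak over the number expected locally from the control. It carries no replicate error. By this definition a fold below 1 means fewer tags than expected, yet 51.2% of all list 1 peaks had one, for a reason not tested. Such peaks still counted toward shared regions here. Median folds over all peaks were 0.99, 2.46 and 4.17 in lists 1, 2 and 3, so folds are compared only within a list. The peak caller's false discovery rate at member peaks ran from 0.82 to 25.3% in list 1, from 0 to 85.7% in list 2 and from 15.2 to 99.8% in list 3. The headers name the same control for lists 1 and 2, and many overlapping peaks of lists 2 and 3 begin at the same base, so the lists cannot be read as fully independent replicates. A peak was assigned to a gene when its highest point, the summit, fell inside the gene or no more than 2 kb from its nearer end. Overlapping peaks were merged into regions, and a region counts as shared when it joins peaks from 2 or more lists. A merged region was placed by the summit of its peak with the highest fold. The annotation gives no strand, so a summit outside a gene is placed on the gene's low- or high-coordinate side and is not called upstream or downstream.

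Shared regions were found at genes of the first and last tiers and at none of the middle tier. Of the 48 genes, 11 had a shared region (22.9%), against 15.2% of all protein-coding genes. With a window of 5 kb the count was 12 (25%), below the 27% of all genes. With a window of 1 kb it was 9 (18.8%), against 10.8% of all genes. With only the nearest gene within 2 kb it was also 9 (18.8%), against 9.25%. At 2 kb but without list 1 it was 8 (16.7%), against 11.7% of all genes. Without list 2 it was 5 (10.4%), against 4.81%, and without list 3 it was 6 (12.5%), against 7.70%. With all lists, a shared region lay at 6 of 18 MPK genes (33.3%, exact 95% binomial interval 13.3 to 59.0%), at 0 of 10 MKK genes (0%, interval 0 to 30.8%) and at 5 of 20 MAPKKK genes (25%, interval 8.66 to 49.1%). The share of all genes lies within each of the 3 intervals, and the tiers' intervals overlap. These intervals cover counting error over genes only, and the difference between tiers was not tested. They treat the genes as independent draws, although the members were chosen with earlier results known, so they decide nothing about the tiers. A region with peaks of all 3 lists lay at MPK15, MPK17, MPK20 and MAPKKK7, which is 4 of 48 genes (8.33%), against 4.38% of all genes.

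The lists divided the tiers in the same way when read singly, except for list 1. List 2 reached 11 of 48 members (22.9%), against 19% of all genes, and list 3 reached 10 (20.8%), against 14.2%. In both lists the MKK genes counted 0 of 10. List 1 reached 30 members (62.5%), against 53.2% of all genes, and here the MKK genes came highest with 7 of 10. List 2 or list 3 reached 13 members (27.1%), against 21.4% of all genes. A summit of list 1 alone was found at 20 members (41.7%), against 39.0% of all genes, and 15 members had no summit in any list (31.2%), against 39.5% of all genes. The median gene length was 2550 bp for MPK, 2080 bp for MKK and 3612 bp for MAPKKK genes, against 2078 bp for all genes. Whether gene length bears on the tiers' counts was not tested.

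**Figure D1:**
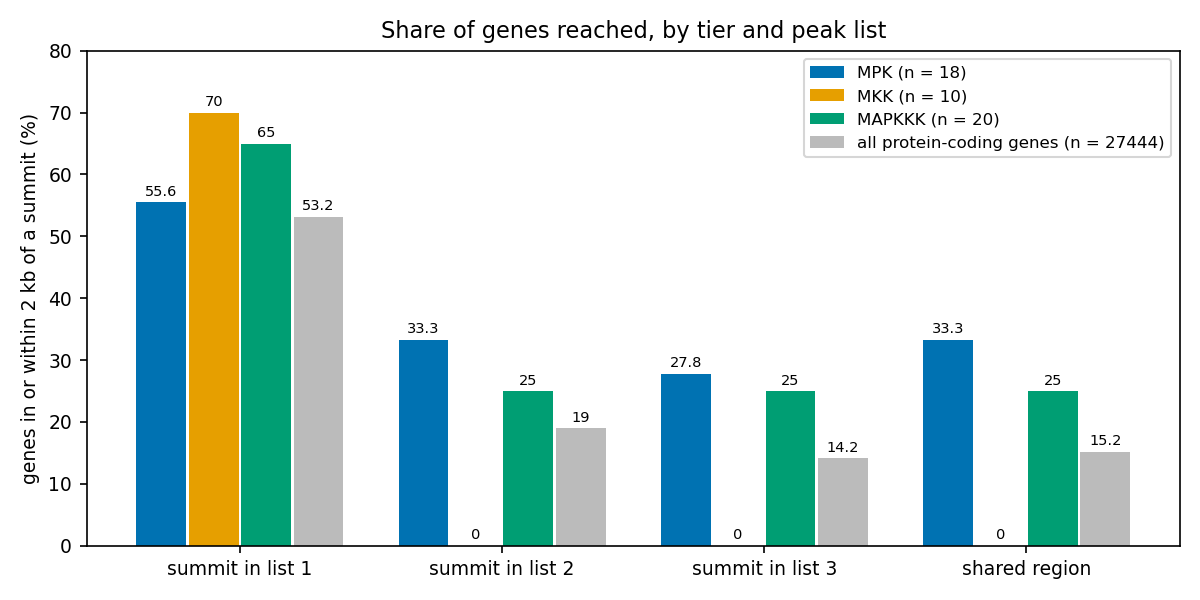
Share of genes with a summit in or within 2 kb, in percent, for each peak list and for shared regions. Bars stand for MPK, MKK and MAPKKK genes and, in grey, all protein-coding genes. The MKK bar is the highest of the 4 in list 1, at 70%, and is at 0 for lists 2 and 3 and for shared regions.

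The MPK genes are the last kinases of the cascade. MPK20 (AT2G42880) had the highest folds of any member in lists 2 and 3. One region had its summit in the gene, and spanned 17839100 to 17841429 on chromosome 2 of TAIR10. Its fold was 0.93 in list 1, 4.94 in list 2 and 7.26 in list 3. By fold the list 2 peak ranked 174 among 4093 and the list 3 peak 235 among 2931, within the top 4.25% and 8.02% of their lists. The list 2 peak held 507 tags and the list 3 peak 463 tags.

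A second MPK20 region, at 17835249 to 17838896, had a fold of 1.2 in list 1, of 4.78 in list 2 and of 8.03 in list 3. Its summit lay 1859 bp outside MPK20 and only 691 bp from PAR1, an atypical bHLH gene that restrains shade responses. The gene nearest to that summit is therefore PAR1 and not the kinase. The in-gene summit of MPK20 was 2655 bp from PAR1, outside the window used for PAR1. With the far region set aside, MPK20 kept a region in all 3 lists through the one in the gene.

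MPK7 (AT2G18170), a kinase activated by MKK3, came next among the MPK genes by list 3 fold, while MPK15 came next in list 2. The MPK7 region spanned 7909607 to 7910686 on chromosome 2, with a list 2 fold of 3.49 and a list 3 fold of 6.74, and no list 1 peak lay within 2 kb of MPK7. The summits of both lists fell on the same base, 277 bp from MPK7 and 386 bp from the neighbouring gene AT2G18180. The 2 genes are thus almost equally close to it.

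MPK15 (AT1G73670) had its main region on chromosome 1, between 27698773 and 27700190. The folds of lists 1, 2 and 3 there were 0.76, 3.63 and 6.33. The list 3 summit of this fold lay 777 bp and the list 2 summit 784 bp outside the gene. List 3 had a further peak in that region, with a fold of 3.19 and its summit just inside the gene. On the other side of MPK15, list 2 alone had a peak of fold 2.20 whose summit lay inside the neighbouring ALPHA DOX2 gene, 826 bp from MPK15.

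MPK17 (AT2G01450) lay within a region of 198919 to 203469 on chromosome 2 that covered the whole gene. The folds were 1.12, 2.72 and 4.30 in lists 1, 2 and 3, and all 3 summits lay in the gene, near its high-coordinate end. The list 2 peak was 4551 bp wide, against 792 bp in list 3, with summits 2 bp apart. Its folds ranked in the top 36.9% of list 2 and the top 46.6% of list 3.

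MPK3 and MPK18 had peaks of lists 1 and 2 only, the 2 lists with a common control. MPK3 (AT3G45640), which acts in immunity and stomatal patterning, had both summits inside the gene, 11 bp apart, where the folds were 0.91 and 2.26. MPK18 (AT1G53510), which is linked to cortical microtubules, had a region between 19969841 and 19970616 on chromosome 1 where list 1 gave a fold of 1.62 and list 2 one of 2.39, with the list 2 summit 16 bp outside the gene. List 1 had 3 more peaks at MPK18, with folds of 0.76, 1.42 and 1.11. Both list 2 folds lay below the median of that list, 2.46, and their false discovery rates were 84.05% at MPK3 and 83.38% at MPK18.

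MPK9 (AT3G18040), a kinase of guard cell signalling, had a peak in list 3 alone, with a fold of 3.66, 242 tags and its summit in the gene. The remaining MPK genes had list 1 peaks alone or none. MPK4, MPK6, MPK11, MPK12 and MPK19 had list 1 summits alone, with folds from 0.53 at MPK12 to 1.55 at MPK4, the last within the top 8.84% of list 1. MPK4, which restrains immunity and takes part in cytokinesis, had the most, with 5 list 1 peaks spread over both sides and the gene. MPK1, MPK2, MPK5, MPK10, MPK14 and MPK16 had no summit in any list.

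By the usual division of plant MAP kinases into groups A to D, applied here after the values had been seen, shared regions lay mostly in group D. Group D, whose activation loop differs from that of the other groups, had a shared region at 4 of its 7 members here (57.1%), namely MPK15, MPK17, MPK18 and MPK20, beside the list 3 peak at MPK9. Groups A and C had 1 each, MPK3 of 3 genes and MPK7 of 4 genes, and group B had 0 of 4, against 15.2% of all genes. Group D genes are also the longest MPK genes, with a median of 3636 bp, against 2304, 2348 and 2066 bp in groups A, B and C.

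**Figure D2:**
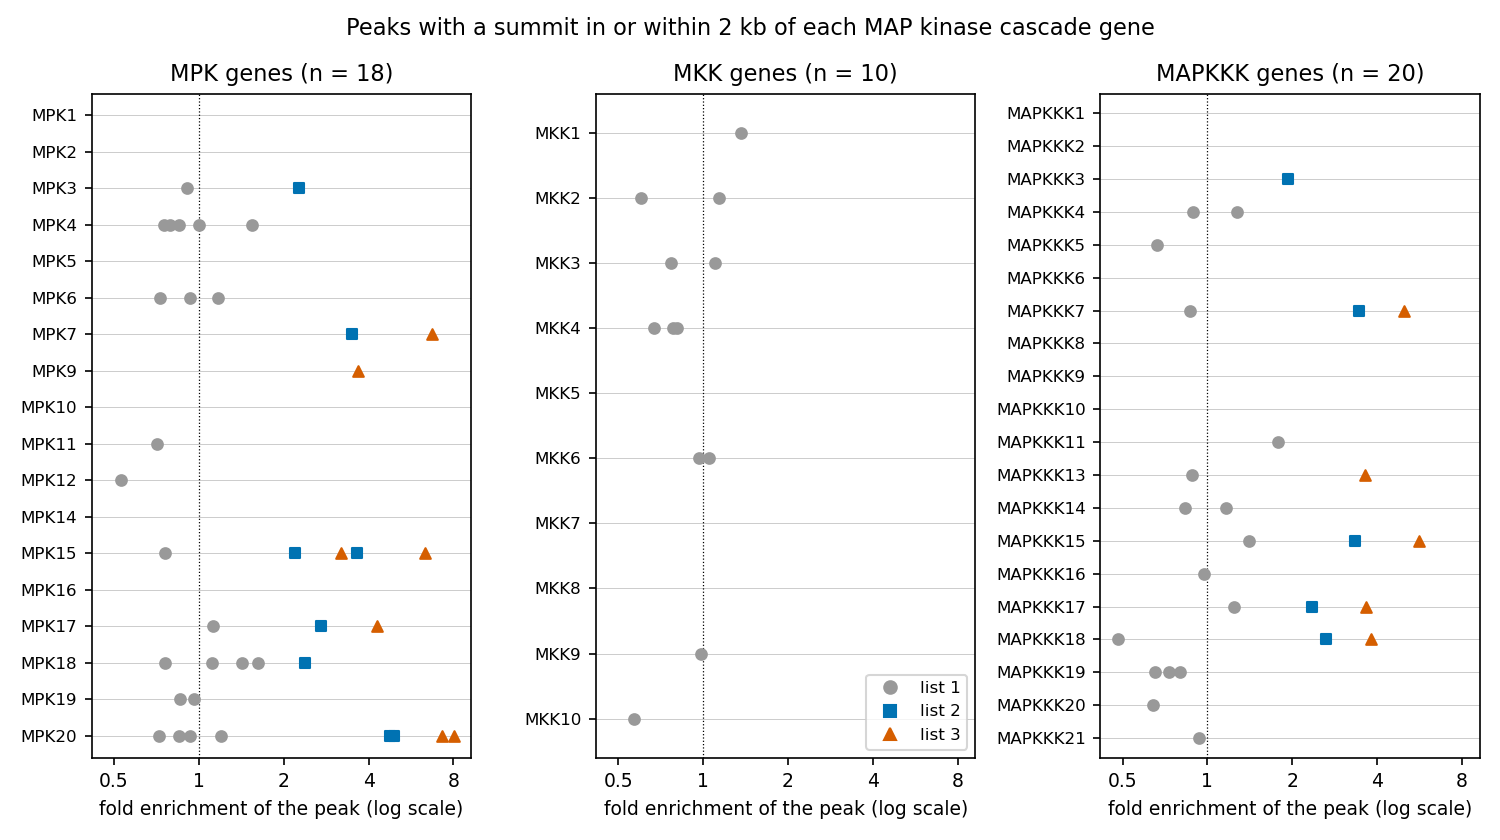
Fold enrichment, on a log scale, of every peak with a summit in or within 2 kb of each member, in 1 panel per tier. Grey circles are list 1, blue squares list 2 and orange triangles list 3, and the dotted line marks a fold of 1. MKK genes carry grey circles alone, from 0.57 to 1.36, while the list 2 and list 3 symbols lie between 1.93 and 8.03.

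The MKK genes are the middle kinases, on which signals from many MAPKKKs converge. Lists 2 and 3 had no summit at any of the 10. List 1 had 12 summits at 7 of them, with a median fold of 0.89 and a range of 0.57 to 1.36, and 8 of the 12 folds were below 1. MKK1 (AT4G26070, annotated as MEK1), which acts with MKK2 upstream of MPK4, had the highest, 1.36, with the summit in the gene. MKK2 had 0.60 and 1.14, MKK3 had 1.10 and 0.77, and MKK6, a kinase of cytokinesis, had 0.97 and 1.05.

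MKK4, which works with MKK5 above MPK3 and MPK6, had list 1 folds of 0.81, 0.67 and 0.78. MKK9, which is linked to ethylene and camalexin production, had 0.98, and MKK10 had 0.57 with its summit 1622 bp away. MKK5, MKK7 and MKK8 had no summit in any list. Widening the window to 5 kb on either side added no MKK gene with a shared region.

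The MAPKKK genes stand at the head of the cascade. MAPKKK7 (AT3G13530, MAP3KE1), which is needed with its close relative MAPKKK6 for viable pollen, was the only MAPKKK gene with a region in all 3 lists. It spanned 4408881 to 4410411 on chromosome 3, and its folds over lists 1, 2 and 3 were 0.87, 3.46 and 4.96. In list 2 it held 533 tags and ranked 85 among 4093 by peak score, with an authors' false discovery rate of 0%. The summit lay 1612 bp from MAPKKK7 and 342 bp from AGP12, an arabinogalactan protein gene, so the kinase is not the nearest gene. MAPKKK6 had no summit.

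MAPKKK15 (AT5G55090) was reached by a region on chromosome 5, from 22359081 to 22359772, whose fold was 3.35 in list 2 and 5.64 in list 3. Both lists placed the summit on the same base, 964 bp from MAPKKK15 and 1658 bp from the next gene. A list 1 peak of fold 1.41 lay apart from it, inside the gene.

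MAPKKK17 and MAPKKK18 are closely related kinases that act in abscisic acid signalling above MKK3. MAPKKK17 (AT2G32510) had a list 2 fold of 2.35 and a list 3 fold of 3.65 in a region from 13800208 to 13800740 on chromosome 2. Its summits lay 409 bp and 381 bp from the gene. MAPKKK18 (AT1G05100) had 2.63 and 3.79 in the same lists, in a region from 1468804 to 1469450 on chromosome 1, with both summits 413 bp from the gene. No other gene lay within 2 kb of the summit of either region. By fold MAPKKK17 ranked in the top 55.5% of list 2 and the top 67.3% of list 3, and MAPKKK18 in the top 40.9% and 62.4%. Their list 3 peaks held 67 and 107 tags, and the false discovery rates there were 99.8% and 94.0%.

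MAPKKK13 (AT1G07150) had a region of lists 1 and 3 with folds of 0.88 and 3.63. Its summits in the 2 lists were 629 bp apart, and the list 3 summit lay 1439 bp from MAPKKK13 but 419 bp from the neighbouring gene AT1G07160. MAPKKK3 (AT1G53570, MAP3KA), which acts above MKK4 and MKK5, had a list 2 peak alone, with a fold of 1.93 and its summit inside another gene 1310 bp away.

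At the other MAPKKK genes there were list 1 peaks or none. MAPKKK4, MAPKKK5, MAPKKK11, MAPKKK14, MAPKKK16, MAPKKK19, MAPKKK20 and MAPKKK21 had list 1 summits alone. The lowest of these folds, 0.64, was at MAPKKK20. The highest, 1.78, was at MAPKKK11 (WRKY19), which encodes a fusion of a kinase with an immune receptor and a WRKY domain. MAPKKK4 (YDA), the kinase that sets stomatal and embryo patterning, had list 1 folds of 1.27 and 0.89. MAPKKK1, MAPKKK2, MAPKKK6, MAPKKK8 (MEKK1), MAPKKK9 and MAPKKK10 had no summit in any list. MAPKKK1 and MAPKKK2, also called ANP1 and ANP2, are kinases of cytokinesis, and MEKK1, MAPKKK9 and MAPKKK10 are close neighbours on chromosome 4. Of the short kinases MAPKKK13 to MAPKKK21, grouped here after the values had been seen, 9 of 9 had a list 1 summit, against 53.2% of all genes, and 4 had a shared region, against 15.2%.

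**Figure D3:**
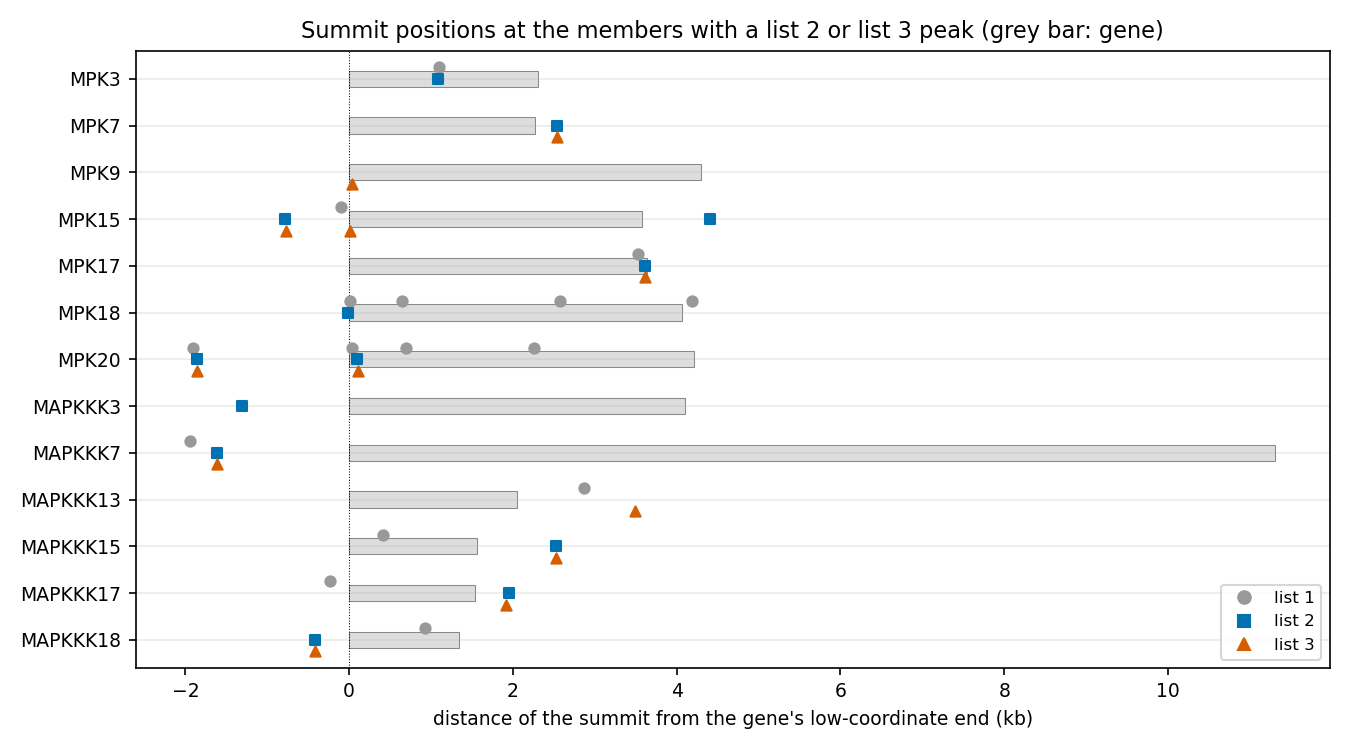
Position of each summit, in kb from the low-coordinate end of the gene, for the 13 members with a list 2 or list 3 peak. Grey bars are genes drawn to length, grey circles list 1, blue squares list 2 and orange triangles list 3. The list 2 and list 3 summits of the same region nearly coincide, and most lie near or beyond an end of the gene rather than in its middle.

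Most shared summits lay outside genes, at the cascade genes as over all shared regions. The 11 genes held 12 shared regions, of which 3 had their summit in the gene, at MPK3, MPK17 and MPK20, and 9 had it outside. Over all shared regions, 64.0% of summits lay outside protein-coding genes of any kind. The cascade gene was the nearest one for 9 of 12 (75%), against 59.6% of all 4723 pairs of a shared region and a gene within 2 kb. The 3 exceptions were MAPKKK7, MAPKKK13 and the far region of MPK20. No summit was within 2 kb of more than 1 member. Of all summits at members, 23.1% lay in the gene in list 2 and 33.3% in list 3, against 38.6% and 35.4% of all peaks of those lists in a gene of any kind. In list 1 the shares were 40.4% at members and 63.0% for all peaks. The member shares count only the member itself, while the shares of all peaks count any gene.

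The folds of lists 2 and 3 kept a similar ratio from member to member. In the 9 member regions with both lists, the list 3 fold was 1.43 to 1.93 times the list 2 fold, with a median of 1.58, against a median of 1.59 over all 2411 such regions. The highest ratio was at MPK7 and the lowest at MAPKKK7. In 7 of the 9 the summits lay within 10 bp of each other, and in 4 (44.4%) the peaks began at the same base, against 51.4% of all such regions. In all 9 a list 2 and a list 3 peak ended at the same base. The share of all such regions with a common end is not given here. MPK7, MAPKKK7, MAPKKK15, MAPKKK18 and the far region of MPK20 had a list 2 and a list 3 summit on the same base.

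**Figure D4:**
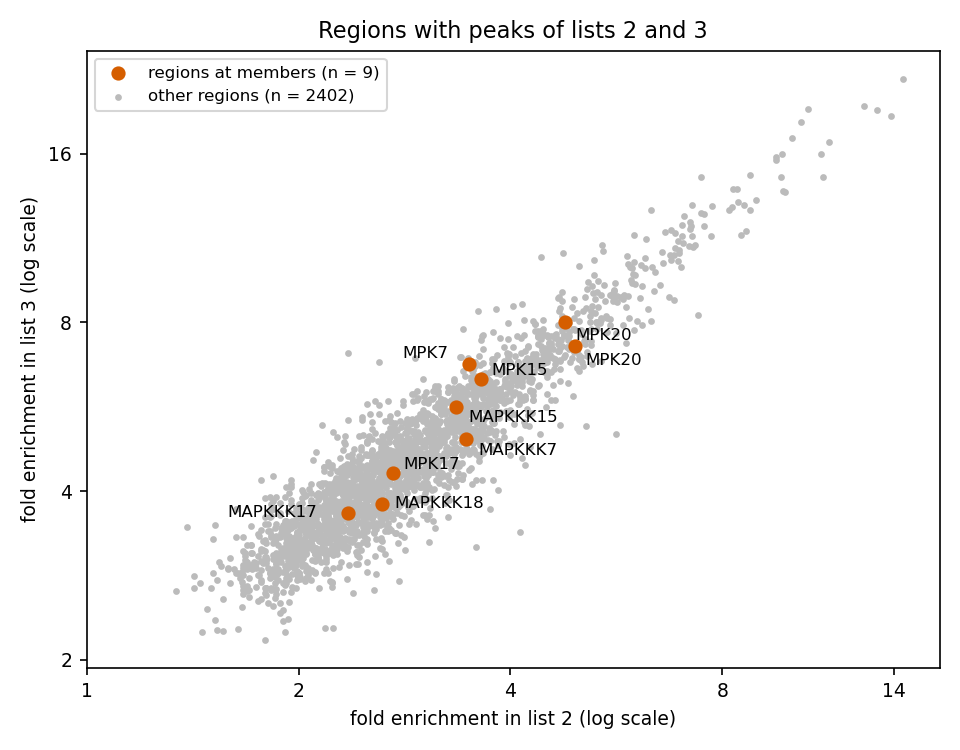
Fold enrichment in list 2 and in list 3, both on log scales, of the 2411 regions with peaks of both lists. Orange points are the 9 regions at members, and grey points are the other 2402. The member points follow the band of the other regions, with MPK20 highest and MAPKKK17 lowest.

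List 1 folds at the members were low. Its 52 peaks at members had a median fold of 0.885 and a range of 0.48 to 1.78, and 67.3% of them were below 1, against 51.2% of all list 1 peaks. The highest list 1 fold at a member, 1.78, was at MAPKKK11, where lists 2 and 3 had no summit within 2 kb. At MAPKKK18 the list 1 fold was 0.48, the lowest of all members. At MAPKKK15, MAPKKK17 and MAPKKK18 the list 1 peaks lay outside the regions of lists 2 and 3. With the false discovery rate of the authors' peak caller held to 1% or less, 1, 2 and 0 member peaks of lists 1, 2 and 3 were left. All of them had their summit between PAR1 and MPK20 or between AGP12 and MAPKKK7.

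The members were also counted by known cascade. The module of MAPKKK17, MAPKKK18, MKK3, MPK1, MPK2, MPK7 and MPK14, which is driven by abscisic acid, had a shared region at 3 of 7 genes, all at its head and end, and MKK3 had list 1 peaks only. The module of MEKK1, MKK1, MKK2 and MPK4, known from immunity, had 0 of 4. That of MAPKKK3, YDA, MAPKKK5, MKK4, MKK5, MPK3 and MPK6 had 1 of 7, MPK3. The cytokinesis kinases MAPKKK1, MAPKKK2, MKK6 and MPK4 had 0 of 4. Of all genes 15.2% had a shared region. These modules were set out after the values had been seen, and with so few genes their counts show nothing particular to a module.

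Other genes of the pathway were read from lists of receptors, scaffolds, phosphatases, cytokinesis proteins, Raf-like kinases and substrates. A shared region lay at 7 of 52 such genes (13.5%), close to the 15.2% of all genes. Receptors and their near partners had 2 of 15: BASL, a polarity protein that binds cascade kinases in stomatal precursors, with a highest list 3 fold of 7.21, and the receptor kinase gene ER with 3.77. Scaffolds had 1 of 3, RACK1A, with a list 2 fold of 2.17. Phosphatases had 1 of 7, MKP1, which inactivates MPK6, with a list 2 fold of 2.08. The phosphatase gene AP2C2 (AT1G07160) is not counted, because the annotation does not pair it with that symbol. The shared region of MAPKKK13 had its summit 419 bp from it.

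Raf-like kinases had 2 of 4, the ethylene pathway kinase gene CTR1 with a list 3 fold of 3.48 and AT1G67890 with 4.09. For MKP1, CTR1 and AT1G67890 another gene was nearer to the summit. Substrates had 1 of 18, EIN3, the transcription factor at the end of the ethylene pathway, with 3.86. Cytokinesis proteins had 0 of 5. The list 3 fold of BASL was above those of MPK7 and MPK15 and below the 7.26 of the in-gene region of MPK20.

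Near the 2 kb limit, MPK11 and MAPKKK16 were reached only by a list 1 summit, at 1973 and 1977 bp. The far list 2 and list 3 summits of MPK20 lay at 1859 bp, beside its summits in the gene. Just outside it, MAPKKK19 had a list 2 peak of fold 2.32 at 2342 bp, nearest to RALFL34. YDA had a list 3 peak of fold 3.03 at 2579 bp, with its summit inside SPPL2. MPK19 and MPK17 had further list 1 peaks at 2029 and 2040 bp.

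The 3 genes left out by the naming rule added no shared region. ATMPK8 had a list 3 peak of fold 3.06 with its summit 106 bp from the gene, and list 1 folds of 1.16 and 0.79. NP3 had list 1 folds of 1.14 and 1.33, with both summits inside a neighbouring gene. ATMPK13 had no summit in any list.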

How the data were processed

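The members, gene lists and cascade modules were chosen with earlier results of these data known. Reads were processed with CASAVA 1.8.0 and Bowtie 0.12.7 and placed on TAIR10, per the submitters' processing notes. Peaks were called per library with MACS 1.4.0rc2 (lists 1 and 3) or 1.4.1 (list 2) at a p cutoff of 1e-05, per the file headers. The authors deposited fold enrichment as a ratio, the false discovery rate in percent, a peak score of −10 times log10 of the p-value, and tag counts per peak. The deposited tags of list 1 peaks are all multiples of 5, so none is given here as a count.

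Genes came from TAIR10.1, whose nuclear coordinates were taken to equal TAIR10: 64.0% of shared summits lay outside genes, against 43.5% and 44.0% after shifts of 2000 bp. Annotation coordinates are not given. Assignment and merging (1 bp overlap, chromosomes 1 to 5) used Python 3.11.15 and were tested on simulated peaks. No test was run and no depth per position was known. Promoter sequences and motifs, planned at first, were not analysed here. Of 55 pathway genes given by identifier, 5 not paired with their symbol were dropped, and 2 with a RAF name were added. Every member with a shared region, or with a list 2 or 3 peak, is named with its folds.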

Additional observations from a re-analysis of the deposited data

How the results depend on the processing

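Over the alternatives, 55 values stayed within 1.5 times the main count and 29 did not. Of the 55, 15 are the MKK tier's counts of 0, which says nothing about stability: with no list 2 or list 3 summit within 2 kb of an MKK gene, only the window of 5 kb could have changed it. The other main counts were 11 members with a shared region, 6 of them MPK and 5 MAPKKK genes, and 30, 11 and 10 members reached by lists 1, 2 and 3. With summits inside the gene only, 3 members had a shared region (3 MPK, 0 MAPKKK), against 4.02% of all genes, and lists 1, 2 and 3 reached 17, 3 and 4. The better-ranked 50% of each list gave 6 (2 MAPKKK), against 7.37% of all genes, with 19 and 6 reached by lists 1 and 2. Equal numbers of peaks gave 7 (3 MAPKKK), against 11.2% of all genes, with 11 and 7 reached by lists 1 and 2. With the peak caller's false discovery rate held to 1% or less, 1 member was left (1 MPK, 0 MAPKKK), MPK20 through the region nearest to PAR1, against 0.051% of all genes, and lists 1, 2 and 3 reached 1, 2 and 0. A window of 1 kb gave 9 members (18.8%, 3 of them MAPKKK genes), against 10.8% of all genes. The nearest gene alone also gave 9 (18.8%, 3 of them MAPKKK genes), against 9.25% of all genes. The shares of all genes reached by single lists under these alternatives are not given here, so those falls are not read as particular to the members.

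Leaving out each list in turn gave 5 to 8 members with a shared region, 3 to 5 MPK genes and 1 to 4 MAPKKK genes. Without list 1 the 8 were MPK7, MPK15, MPK17, MPK20, MAPKKK7, MAPKKK15, MAPKKK17 and MAPKKK18. Without list 2 the 5 were MPK15, MPK17, MPK20, MAPKKK7 and MAPKKK13. Without list 3 the 6 were MPK3, MPK15, MPK17, MPK18, MPK20 and MAPKKK7. Regions with a list 1 peak, chosen after seeing the data, gave 7 members (2 MAPKKK), against 8.30% of all genes. The share of all genes with a shared region was 4.81% without list 2 and 7.70% without list 3. Why the counts moved was not tested. Some alternatives left fewer peaks, and others changed only how summits were assigned to genes. No paired analysis was possible because the deposited lists already set each PIF4-Myc library against a wild-type control and no test was run.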
